A study of Mus musculus with 6 samples.

Results

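The urea cycle genes measured here were Nags, Cps1, Otc, Ass1, Asl and Arg1, together with Arg2, which encodes the mitochondrial arginase. They are 7 of the 34718 genes in the count table. Each was taken by its name as an enzyme of the pathway. The group as a whole was selected on the difference between knockdown and control libraries that these same data show, with Ass1 as its leading gene. The fold changes of the 7 genes are therefore a description, with no test.

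RNA came from Hepa1-6, a mouse hepatoma cell line, in 6 libraries. The 3 libraries titled shNC are the controls, and the 3 titled shZfp207 carry a short hairpin knockdown of Zfp207, the mouse counterpart of the human zinc finger gene ZNF207. The design text states the aim as examining expression after that knockdown. The labels tag the samples as tumor, but the growth protocol describes cells in culture. They do not give the number of hairpins or clones, or say whether the replicates were separate cultures, so effects of a hairpin other than loss of Zfp207 cannot be told apart, and p-values measure the spread between these samples only.

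The urea cycle turns ammonia, which is toxic, into urea, and in the body it runs mainly in periportal hepatocytes of the liver. NAGS makes N-acetylglutamate, the activator without which CPS1 does not form carbamoyl phosphate, and OTC joins that product to ornithine as citrulline inside the mitochondrion. In the cytosol ASS1 condenses citrulline with aspartate, ASL splits the product into arginine and fumarate, and ARG1 cleaves arginine into urea and ornithine. ARG2 carries out the last reaction in mitochondria of many tissues outside the liver. Many liver tumours lose ASS1, and cells that lack it depend on arginine from outside.

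Zfp207, the targeted gene, had 141.4, 198.0 and 216.8 CPM (counts scaled to a common library total) across control replicates 1 to 3, against 48.0, 48.1 and 46.8 CPM across knockdown replicates 1 to 3, and it fell (log2 fold change -1.95, SE 0.17, adjusted p = 0.00236 by edgeR). The libraries held 11933736 to 16248346 counts, so that a count of 0 allows up to 0.185 to 0.251 CPM, counting error only. Control replicate 1 stood apart: 10.5% of its counts came from mitochondrially encoded genes, compared with 2.67% and 2.89% in the other controls and 5.60% to 6.00% in the knockdown libraries, and its log2 CPM correlated across genes at 0.95 with each other control, which correlated at 0.989 with each other. Counts differed by more than sampling noise in every pair of replicates, 138 and 148 chi-square per degree of freedom in the pairs with control replicate 1 and 7.005 to 8.904 in the others. The fold changes of the members that passed the filter are given with and without control replicate 1. So are the counts of each gene list other than the cell type markers. For other genes whose calls are given singly, the values without it are given where they change a call or a sign. Over all 11975 genes with enough counts to test, 9.92% were called higher and 10.7% lower in knockdown cells at an edgeR adjusted p below 0.05, and without control replicate 1 the shares were 26.1% higher and 26.1% lower of 12108 genes.

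Only 4 of the 7 genes, Ass1, Asl, Arg2 and Nags, passed the filter on low counts. Of these, 3 (Ass1, Arg2 and Nags) lay past the threshold in the fit over all genes, all lower in knockdown cells, and 0 lay past it in the higher direction, against a background of 10.7% lower and 9.92% higher. By unadjusted p below 0.05, by DESeq2 and by limma on FPKM the number higher was also 0. In the same 3 genes all knockdown libraries lay below all controls, as did 22.4% of all genes tested. Nothing is read from these counts, since this difference chose the group. The median log2 fold change of the 4 genes was -0.83, and that of all genes tested was -0.03. Without control replicate 1 all 4 lay past the threshold, lower.

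Ass1, whose enzyme condenses citrulline and aspartate, showed the largest difference of the 4. It had 12.99, 8.43 and 7.14 CPM across control replicates 1 to 3, against 2.17, 2.79 and 2.39 CPM across knockdown replicates 1 to 3, from 155, 123 and 116 counts against 33, 42 and 35. Control replicate 1 was the highest library, the knockdown libraries lay close together, and the groups did not overlap. After scaling between libraries (TMM) the means were 9.47 ± 2.99 CPM for the controls and 2.46 ± 0.325 CPM after knockdown (SD, n = 3 each), a level 74.0% lower and a log2 fold change of -1.94 (SE 0.27). Without control replicate 1, which also had the highest mitochondrial share, the log2 fold change was -1.66. The part of that library's mitochondrial share in the level of Ass1 was not tested. With each library left out in turn the value ran from -2.11 to -1.66 and stayed past the threshold in 6 of 6 fits. Ass1 (ENSMUSG00000076441) spans 31470207 to 31520672 of chromosome 2 (plus strand) in mm10. None of its annotated exonic sequence overlaps another gene. In bulk RNA, fewer cells that make a transcript and less of it per cell cannot be told apart. A listed pseudogene on another chromosome, Ass-ps1, had a count of 0 in every library.

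Asl is the lyase gene of the next step. Its levels were 80.6, 91.1 and 92.7 CPM across control replicates 1 to 3, against 83.4, 79.0 and 79.0 CPM across knockdown replicates 1 to 3. Control replicate 1 lay within the range of the knockdown libraries, so the groups overlapped. The scaled means were 87.9 ± 7.11 and 80.9 ± 2.10 CPM (SD, n = 3 each), with a log2 fold change of -0.12 (SE 0.094). Without control replicate 1 it was -0.19, and it then lay past the threshold. Asl (ENSMUSG00000025533) spans 130011258 to 130029247 of chromosome 5 (minus strand), with no exonic overlap with another annotated gene.

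Of the pair of arginase genes, the mitochondrial form Arg2 was the one with counts. It had 7.88, 5.69 and 7.26 CPM across control replicates 1 to 3, against 4.33, 3.18 and 2.67 CPM across knockdown replicates 1 to 3. Every knockdown library was lower than every control library, and the gap between the nearest libraries was from 4.33 to 5.69 CPM. The scaled means were 6.91 ± 1.08 and 3.41 ± 0.836 CPM (SD, n = 3 each), a level 50.7% lower, with a log2 fold change of -1.02 (SE 0.24), or -0.92 without control replicate 1. The value lay past the threshold without control replicate 1 or 2 and not without control replicate 3 or any 1 knockdown library, with a range of -1.22 to -0.87. Arg2 (ENSMUSG00000021125) spans 79130777 to 79156301 of chromosome 12 (plus strand). Of its exonic sequence 28.1% overlaps genes on the opposite strand, among them Vti1b, so reads of the 2 strands may be mixed. Vti1b itself had a log2 fold change of -0.36 (SE 0.23, adjusted p = 0.317 by edgeR), and -0.04 without control replicate 1.

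Nags, the gene of the enzyme that makes the CPS1 activator, was the most even of the 4 among controls. It had 8.38, 8.16 and 7.69 CPM across control replicates 1 to 3, against 6.23, 4.78 and 4.31 CPM across knockdown replicates 1 to 3. The coefficient of variation of its CPM was 4.33% among controls and 19.7% among knockdown libraries, while for Ass1 these were 32.3% and 12.8%. The groups did not overlap. The scaled means were 8.05 ± 0.325 and 5.13 ± 0.980 CPM (SD, n = 3 each), a level 36.2% lower, with a log2 fold change of -0.65 (SE 0.18), or -0.62 without control replicate 1. It lay past the threshold without control replicate 1 and not with any other library left out, with a range of -0.81 to -0.54. Nags (ENSMUSG00000048217) spans 102145513 to 102149477 of chromosome 11 (plus strand), with an opposite-strand gene over 15.6% of its exons.

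**Figure D1:**
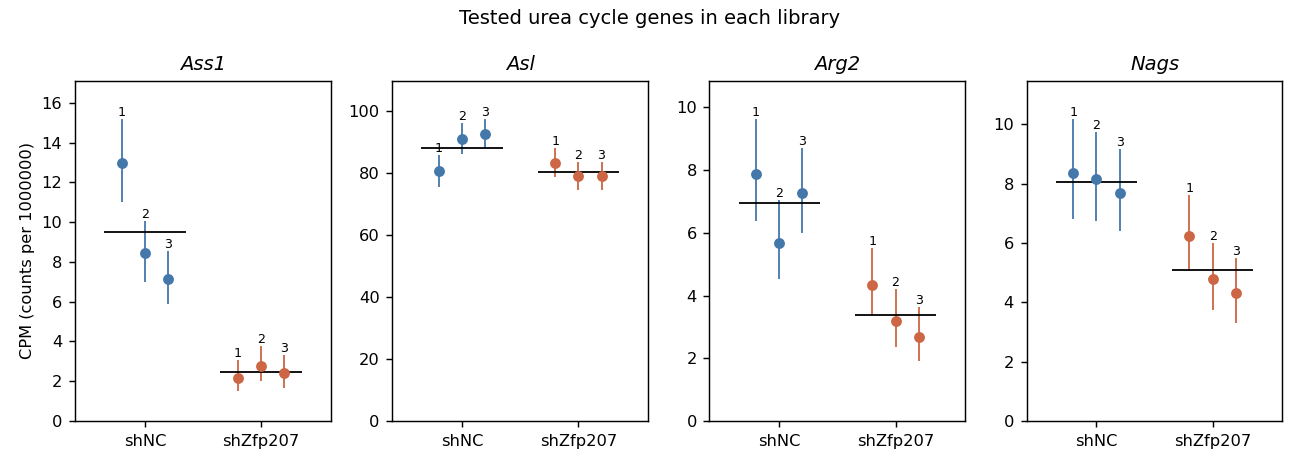
CPM of Ass1, Asl, Arg2 and Nags in each library, with the replicate number above each point, exact 95% counting intervals as bars (counting error only) and the mean of each group as a black line. Knockdown libraries lie below all control libraries for Ass1 (2.17 to 2.79 against 7.14 to 12.99 CPM), Arg2 and Nags, and overlap them for Asl.

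The other 3 genes were close to undetected, among them both of the mitochondrial steps that make citrulline. Cps1, the carbamoyl phosphate synthetase gene (chromosome 1, 67123026 to 67231259), had 5, 2 and 2 counts in control replicates 1 to 3 and 0 in each knockdown library. The 9 control counts correspond to 0.210 CPM over the group, which is 3.15 times a limit of 3 counts over the knockdown group, 0.0668 CPM. That ratio takes the control counts as exact, so it is not a lower bound on the difference. Without control replicate 1, which leaves 4 control counts, the ratio was 1.94. Otc, the ornithine transcarbamylase gene (chromosome X, 10252305 to 10321024), had 2 counts in knockdown replicate 1 and 0 in the other 5 libraries. Arg1, the cytosolic arginase of liver (chromosome 10, 24915208 to 24927470), had 1 count in control replicate 3 and 0 elsewhere. At these counts no difference was detectable for Otc or Arg1, and no fold is given.

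Per length, the levels ranked as Asl, Arg2, Ass1 and Nags in control cells and as Asl, Arg2, Nags and Ass1 in knockdown cells. The mean in CPM per kilobase of annotated exonic sequence was 18.2 ± 1.36 for Asl, 4.86 ± 0.790 for Arg2, 3.94 ± 1.27 for Ass1 and 2.85 ± 0.123 for Nags in control cells (SD, n = 3). Arg2, at 3.98 to 5.52, and Ass1, at 2.96 to 5.38, overlapped, and the highest Nags library, 2.95, lay next to the lowest Ass1 library, 2.96. Library by library, Arg2 stood at 1.03, 1.14 and 1.72 times Ass1 in control replicates 1 to 3, and Ass1 at 1.82, 1.22 and 1.09 times Nags, so the order was the same in each control although the ranges of Arg2 and Ass1 overlapped. In knockdown cells the means were 16.7 ± 0.526 for Asl, 2.38 ± 0.597 for Arg2, 1.80 ± 0.354 for Nags and 1.01 ± 0.130 for Ass1. There Arg2 and Nags overlapped, and every Ass1 library, at 0.897 to 1.15, lay below every Nags library, at 1.52 to 2.20. The deposited FPKM (counts scaled for library total and gene length) gave the same order, with control means of 13.2, 4.85, 3.21 and 1.83 for Asl, Arg2, Ass1 and Nags and knockdown means of 12.1, 2.37, 1.16 and 0.826 for Asl, Arg2, Nags and Ass1. The lengths implied by those FPKM were over 1.1 times the annotated exonic sequence for 64.3% of 10350 genes (median ratio 1.25). They were 4409 against 2838 bases for Nags, 6662 against 4831 for Asl, 2965 against 2414 for Ass1 and 1431 against 1428 for Arg2, so FPKM between these genes depends on an unstated length.

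The proportions between the genes moved with these levels. Per kilobase, Asl stood at 3.10, 5.40 and 6.49 times the level of Ass1 in control replicates 1 to 3 and at 19.2, 14.2 and 16.5 times in knockdown replicates 1 to 3. The groups did not overlap in this ratio, and control replicate 1, with the most Ass1, had the lowest value. Asl took 54.5% to 64.5% of the summed level of the 7 genes in control libraries and 73.7% to 78.9% in knockdown libraries. The share of Ass1 was 9.86% to 17.6% in control and 3.83% to 5.39% in knockdown libraries. The plot of levels per kilobase shows the 4 expressed genes apart from the 3 near 0.

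**Figure D2:**
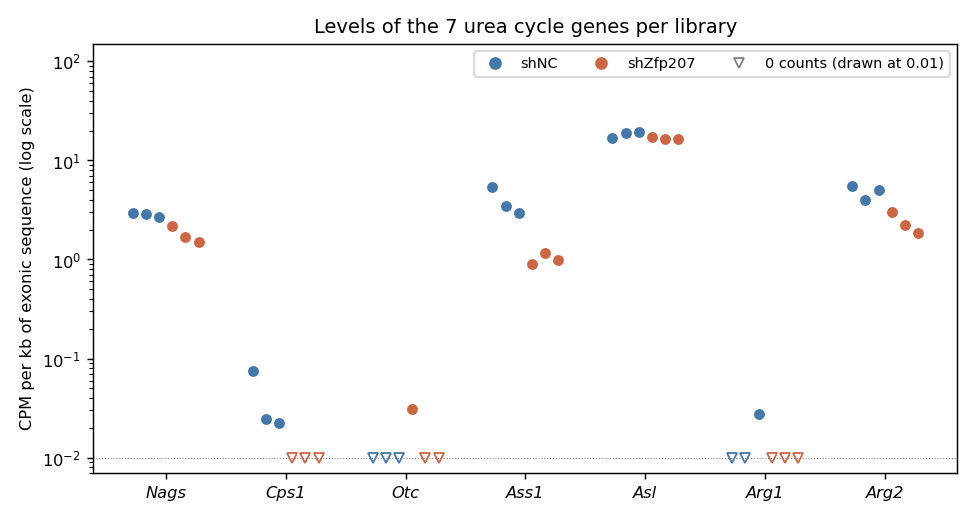
Level of the 7 genes in each library, in CPM per kilobase of annotated exonic sequence on a log axis, in the order of the cycle with Arg2 last, control libraries in blue and knockdown libraries in orange. Libraries with a count of 0 are open triangles drawn at 0.01. Asl is highest in every library, and Cps1, Otc and Arg1 have at most 5 counts in any library.

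RefSeq sequence upstream of the start was matched for 3 of the 7 genes, Ass1, Otc and Nags. The windows of Ass1 and Nags, which were both lower in knockdown cells, are shown 5′ to 3′, each the 250 bases before the RefSeq start in GRCm38.p6, plus strand, at chr2:31470020-31470269 and chr11:102145263-102145512. Capitals mark GGGCGG (GC box, bound by SP1; its reverse complement included) and CACGTG (E-box, the same on both strands, bound by MYC and by BHLHE40).
Ass1: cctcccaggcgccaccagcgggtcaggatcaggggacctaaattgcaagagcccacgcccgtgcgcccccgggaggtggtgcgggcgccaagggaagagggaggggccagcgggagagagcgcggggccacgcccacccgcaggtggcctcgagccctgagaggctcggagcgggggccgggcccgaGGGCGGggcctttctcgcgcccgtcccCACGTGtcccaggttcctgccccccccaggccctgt
Nags: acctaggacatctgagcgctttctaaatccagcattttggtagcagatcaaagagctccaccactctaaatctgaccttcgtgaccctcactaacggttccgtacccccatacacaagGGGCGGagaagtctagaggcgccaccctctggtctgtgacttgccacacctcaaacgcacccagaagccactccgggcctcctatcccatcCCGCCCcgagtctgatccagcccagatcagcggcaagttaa

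The Ass1 window held 1 GC box, at -63 to -58 from the RefSeq start, and 1 E-box, at -36 to -31. The deposited start of the gene lies 63 bases before the RefSeq start. Of 32851 RefSeq windows of the same length, 32.7% held a GC box and 6.02% an E-box. The Nags window held 2 GC boxes, at -132 to -127 and at -41 to -36, and no E-box. CCAAT, TGACGTCA, TGATGNAA and TATAAA, searched on both strands, were not in the Ass1, Nags or Otc windows, and 33.8%, 1.55%, 3.45% and 12.4% of all windows held them. The Ass1 window had 75.6% G and C and 23 CpG, Nags 55.6% and 11, and Otc, on chromosome X, 43.6% and 1, against medians of 52.4% and 6 over all windows. A match is a description of the letters and shows no binding.

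Among 22 transcription factors known to act on urea cycle genes, 20 passed the low-count filter, 0 of them higher and 3 lower (median log2 fold change 0.02). Over all genes tested the shares were 9.92% higher and 10.7% lower. Ppargc1a, the coactivator PGC-1alpha of the fasting response, fell, with 15.7 ± 1.78 CPM in controls and 7.91 ± 1.01 CPM after knockdown (log2 difference -0.99, SE 0.16, adjusted p = 0.00903 by edgeR). Atf4, the amino acid stress factor, fell by 0.46 (adjusted p = 0.0164 by edgeR), and Nfyb, a subunit of the CCAAT-binding factor NF-Y, fell by 0.46 (adjusted p = 0.0345 by edgeR). With single libraries left out, the call of Ppargc1a was lost without knockdown replicate 1 or 2, that of Nfyb without control replicate 3, any 1 knockdown library or the low-count filter, and that of Atf4 when any library but control replicate 1 was left out. The liver factors stayed short of the threshold: Hnf4a had a log2 fold change of 0.02 (adjusted p = 0.927 by edgeR) at 363.2 ± 23.7 and 367.1 ± 11.4 CPM, and Cebpa one of 0.30 (adjusted p = 0.0891 by edgeR). With control replicate 1 left out, Hnf4a was at -0.04 and Cebpa was called higher (0.28, adjusted p = 0.0373 by edgeR). Sp1, whose protein binds the GC box, had 4.36, 205.2 and 171.2 CPM across control replicates 1 to 3. Its knockdown libraries had 197.9 to 231.0 CPM (log2 fold change 0.75, SE 0.999, adjusted p = 0.635 by edgeR). Myc was at -0.14 (adjusted p = 0.334 by edgeR), and called lower without control replicate 1 (-0.19, adjusted p = 0.0284 by edgeR). Bhlhe40 was at 0.07 (adjusted p = 0.581 by edgeR). Hnf4a, Cebpa, Sp1, Myc and Bhlhe40 were picked with their values in view, outside the naming rule. In the whole list of factors, 2 were higher at an unadjusted p below 0.05, and DESeq2 called 1 higher. Leaving out control replicate 1 gave 2 higher and 5 lower, where 26.1% of all genes tested were called higher and 26.1% lower.

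Carriers bring the intermediates across the mitochondrial and plasma membranes. Of 13 such genes 10 passed the low-count filter, 1 of them higher and 1 lower (median log2 fold change -0.18). Over all genes tested the shares were 9.92% higher and 10.7% lower. Slc7a2, a cationic amino acid transporter that takes up arginine and ornithine, fell. It had 7.71, 3.50 and 2.09 CPM across control replicates 1 to 3, against 1.12, 0.796 and 0.752 CPM across knockdown replicates 1 to 3. Control replicate 1 was the highest library, as for Ass1. The log2 fold change was -2.28 (SE 0.53, adjusted p = 0.0284 by edgeR), or -1.63 without control replicate 1, and the call did not hold when control replicate 2 or a knockdown library was left out. By limma on FPKM it was -1.098 and not called (adjusted p = 0.0637 by limma). Slc7a6, which exchanges cationic and neutral amino acids, rose, with 98.2 ± 0.847 CPM in controls and 137.3 ± 3.98 CPM after knockdown (log2 difference 0.48, SE 0.078, adjusted p = 0.00929 by edgeR), a call lost without any 1 knockdown library. The mitochondrial ornithine carrier Slc25a15 had a log2 fold change of -0.20 (adjusted p = 0.564 by edgeR) and the aspartate and glutamate carrier Slc25a13, or citrin, one of 0.38 (adjusted p = 0.0766 by edgeR). With control replicate 1 left out, Slc25a15 changed sign to 0.08 (adjusted p = 0.587 by edgeR) and Slc25a13 was called higher (0.26, adjusted p = 0.00545 by edgeR). Slc7a1, another cationic amino acid transporter, was higher in every knockdown library than in any control, at 557.9 ± 217.5 and 811.8 ± 19.3 CPM. Its log2 fold change was 0.54 (adjusted p = 0.236 by edgeR). Without control replicate 1, its lowest library, it was called higher (0.25, adjusted p = 0.0014 by edgeR). Slc25a15, Slc25a13 and Slc7a1 fall outside the naming rule, and their values had been seen when they were picked. In the whole list, 3 were higher and 4 lower with control replicate 1 left out, against 26.1% higher and 26.1% lower of all genes.

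Of 13 genes that supply ammonia, glutamine, aspartate or bicarbonate, 12 passed the low-count filter, 2 of them higher and 0 lower (median log2 fold change -0.01). Over all genes tested the shares were 9.92% higher and 10.7% lower. Glud1, the glutamate dehydrogenase that releases ammonia in mitochondria, rose, with 292.3 ± 20.3 CPM in controls and 379.9 ± 15.8 CPM after knockdown (log2 difference 0.38, SE 0.095, adjusted p = 0.0352 by edgeR). Glul, the glutamine synthetase that binds ammonia instead, rose, with 288.0 ± 29.3 CPM in controls and 377.3 ± 7.79 CPM after knockdown (log2 difference 0.39, SE 0.10, adjusted p = 0.0421 by edgeR). Control replicate 1 was the lowest library for both, and both calls were lost when any other single library was left out, and also without the low-count filter. At an unadjusted p below 0.05, by DESeq2 and by limma on FPKM the number lower was also 0. With control replicate 1 left out, 3 were higher and 1 lower, against 26.1% higher and 26.1% lower of all genes tested.

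Other enzymes that use arginine, ornithine or proline gave 1 higher and 4 lower of 16 tested, out of 20 listed (median log2 fold change -0.16). Over all genes tested the shares were 9.92% higher and 10.7% lower. Of the 4 lower genes, 3 belong to proline metabolism. Pycrl, a pyrroline-5-carboxylate reductase gene, had 47.9, 48.6 and 51.8 CPM across control replicates 1 to 3, against 29.1, 23.3 and 24.6 CPM across knockdown replicates 1 to 3. The groups lay far apart, and Pycrl fell by 0.93 on the log2 scale (SE 0.12, adjusted p = 0.00501 by edgeR), with the call kept in 6 of 6 fits with a library left out. Pycr1, another such reductase, fell by 1.00 (SE 0.25, adjusted p = 0.0341 by edgeR) and Prodh, the proline dehydrogenase, by 0.89 (SE 0.22, adjusted p = 0.0318 by edgeR). Both calls were lost when any single library other than control replicate 1 was left out.

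Aldh4a1, which completes proline breakdown to glutamate, rose, with 13.9 ± 0.875 CPM in controls and 21.7 ± 1.04 CPM after knockdown (log2 difference 0.65, SE 0.11, adjusted p = 0.0114 by edgeR). A same-strand gene covers 32.5% of its exons. Nos1, a nitric oxide synthase that makes citrulline from arginine, fell, with 1.35 ± 0.569 CPM in controls and 0.247 ± 0.0435 CPM after knockdown (log2 difference -2.40, SE 0.46, adjusted p = 0.0153 by edgeR). It rests on 56 counts over the controls and 11 over the knockdown libraries, whose CPM lay near the limit for a count of 0. The calls of Aldh4a1 and Nos1 were lost without any 1 knockdown library. By limma on FPKM, with a pseudocount of 0.1, Nos1 was at -0.70 and not called (adjusted p = 0.0614 by limma). The ornithine aminotransferase Oat had a log2 fold change of -0.08 (adjusted p = 0.497 by edgeR) and the ornithine decarboxylase Odc1 one of 0.27 (adjusted p = 0.170 by edgeR), which was called higher without control replicate 1 (0.40, adjusted p = 0.000162 by edgeR). Both were picked with their values in view. The counts without control replicate 1 were 4 higher and 6 lower of the list, against 26.1% higher and 26.1% lower of all genes tested.

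Genes that draw on the same intermediates elsewhere were counted beside the shares of all genes tested, 9.92% higher and 10.7% lower. Of 6 genes of pyrimidine synthesis, whose first enzyme CAD makes carbamoyl phosphate in the cytosol, edgeR called 0, with 0 at an unadjusted p below 0.05 and 0 by DESeq2 or limma on FPKM (median log2 fold change -0.09). Cad had 125.9 ± 44.2 and 94.5 ± 2.72 CPM (-0.42, adjusted p = 0.299 by edgeR) and Ctps 173.6 ± 12.1 and 168.7 ± 4.95 CPM (-0.04, adjusted p = 0.774 by edgeR). Leaving out control replicate 1 gave 2 higher and 1 lower, which was Cad (-0.68). Of 8 genes of fumarate and aspartate metabolism, 1 was lower and 0 higher (median log2 fold change -0.13). It was Adssl1, an adenylosuccinate synthase that consumes aspartate, which fell by 1.06 on the log2 scale (SE 0.24, adjusted p = 0.0268 by edgeR). The call did not hold when control replicate 3 or a knockdown library was left out. By unadjusted p and both other tools the number higher was 0. For this list, leaving out control replicate 1 gave 1 higher and 4 lower. Over all genes tested, that fit called 26.1% higher and 26.1% lower.

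**Figure D3:**
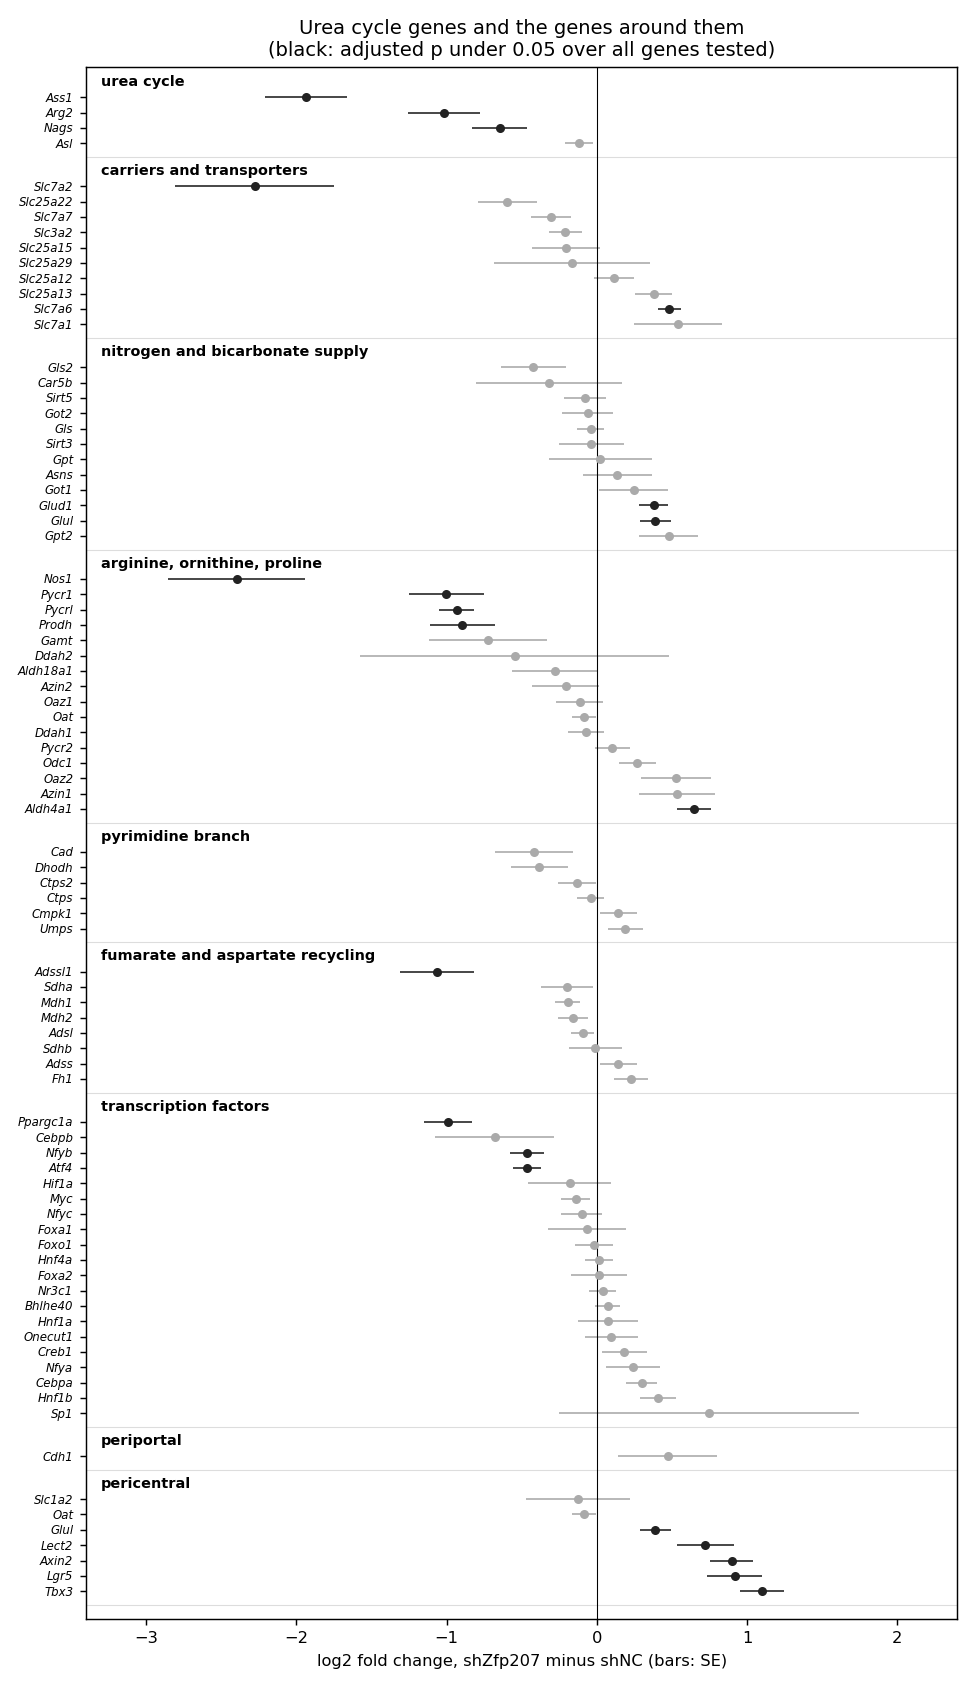
Log2 fold change with its SE for the 4 urea cycle genes that passed the filter and for every testable gene of the 8 lists, with knockdown minus control on the x axis and 1 gene per line. Black marks an edgeR adjusted p below 0.05 over all genes tested. For the urea cycle genes this is a description, since the difference chose them. Ass1 at -1.94, Slc7a2 at -2.28 and Nos1 at -2.40 lie farthest to the left.

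The urea cycle is a periportal function of the liver lobule, so the markers of both zones were counted. Of 11 other periportal genes 1 could be tested, Cdh1, with a log2 fold change of 0.47 (SE 0.33, adjusted p = 0.349 by edgeR), and edgeR, DESeq2 and limma on FPKM called 0, as did an unadjusted p below 0.05. Pck1 and G6pc, of gluconeogenesis, had 1 count each over the 6 libraries together, and Hal, of histidine breakdown, had 17 in control and 0 in knockdown libraries. Tat and Pigr went the other way, with 15 and 15 counts in control and 38 and 22 in knockdown libraries. These genes were picked with their counts in view, and none of them is read as a change of the zone. Without control replicate 1, 2 of the 11 could be tested, 0 higher and 0 lower. Of 12 pericentral genes 7 passed the low-count filter, 5 of them higher and 0 lower, also by DESeq2 and limma on FPKM (median log2 fold change 0.72). Of all genes tested, edgeR called 9.92% higher and 10.7% lower. The lists were chosen with earlier results of these data known, so these counts are a description. The other tools used the same 6 libraries.

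The pericentral genes that rose include a receptor and targets of Wnt signalling. Tbx3, a transcription factor gene, had 39.8, 55.4 and 54.3 CPM across control replicates 1 to 3, against 110.7, 102.4 and 105.1 CPM across knockdown replicates 1 to 3. Every knockdown library was above every control, and Tbx3 rose by 1.099 on the log2 scale (SE 0.15, adjusted p = 0.00592 by edgeR), with the call kept in 6 of 6 fits with a library left out. Axin2, a feedback inhibitor of the pathway, rose by 0.90 (adjusted p = 0.00909 by edgeR), Lgr5, the R-spondin receptor, by 0.92 (adjusted p = 0.0171 by edgeR) and Lect2, a secreted protein gene, by 0.72 (adjusted p = 0.0405 by edgeR). Glul, also given above, was the fifth gene. The testable genes not called were Oat (-0.08) and Slc1a2 (-0.12, or 0.17 without control replicate 1), named with their values in view. Cyp2e1, the pericentral cytochrome, picked with its counts in view, had a count of 0 in all 6 libraries. The calls of Axin2, Lgr5 and Lect2 were lost in 2, 3 and 5 of the 6 fits with a library left out, and that of Lect2 also with upper-quartile scaling. Without control replicate 1, 5 were higher and 0 lower of 8, against 26.1% higher and 26.1% lower of all genes tested.

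The genes beside the members on the chromosome were read in the same fit. The 2 nearest testable genes on each side of Ass1, Arg2 and Nags make 12, and edgeR called 0 of them, with log2 fold changes from -0.70 to 0.48 and a lowest edgeR adjusted p of 0.0577. At an unadjusted p below 0.05, 1 was higher and 1 lower, as by DESeq2, and limma on FPKM called 1 higher. With control replicate 1 left out, edgeR called Rdh11 (-0.92) and Mpp2 (-0.62) lower and Pigh (0.41) higher. Around Ass1, Fubp3 lies 51979 bases beyond it and had a log2 fold change of -0.04 (SE 0.18), and Ncs1 on the other side had -0.05 (SE 0.10). The other two were Gpr107 (-0.02) and Exosc2 (0.25). Around Arg2 lie Pigh (0.48), Plekhh1 (0.09), Vti1b (-0.36) and Rdh11 (-0.70), and around Nags Mpp2 (-0.33), Mpp3 (0.11), Tmem101 (-0.01) and Lsm12 (-0.11). The sign was not stable for Gpr107, Fubp3, Plekhh1, Mpp3 and Tmem101, which changed sign with at least 1 library left out.

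Over the neighbours of all 7 genes, 28 in all, 5 were higher and 1 lower, against 9.92% higher and 10.7% lower of all genes tested. Lower was Tspan7 (-1.48), beside Otc, and higher were Sytl5 (2.08), also beside Otc, Gusb (0.51) and Crcp (0.44) beside Asl, Lancl1 (0.52) beside Cps1, and Akap7 (0.66) beside Arg1. All 6 are named only because their values had been seen, outside the naming rule. Crcp lies 43 bases from Asl, and its call was lost with upper-quartile scaling and without the low-count filter. With control replicate 1 left out, 15 of the 28 were called, where 26.1% of all genes tested were called higher and 26.1% lower. Nothing about the members is read from these counts.

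The genes whose pattern over the 6 libraries lay nearest to each member were found among 10883 genes with a mean of at least 2 CPM, by the distance between log2 CPM profiles centred on each gene's mean. For Ass1 they were Car8, a carbonic anhydrase-related gene (distance 0.354, log2 fold change -1.71), Xylb, the xylulokinase gene (0.365, -1.69), and Steap3, an iron reductase gene (0.445, -1.92). In all 3, as in Ass1, replicate 1 was the highest control, which the selection by likeness favours. Car8 had 30.8, 19.5 and 20.7 CPM across control replicates 1 to 3, against 6.56 to 7.63 CPM in knockdown libraries. Its order of control replicates 2 and 3 was the reverse of that of Ass1, as was that of Xylb. For Arg2 they were Arsa (0.137), Selm (0.248) and Mrps12 (0.259), for Nags Mtdh (0.176), Gm21988 (0.188) and Tead2 (0.195), and for Asl Rcc2 (0.0419), Slc39a11 (0.0526) and Ghitm (0.0629). Between members the nearest pair was Arg2 and Nags (0.566), and the farthest was Ass1 and Asl (2.28). Distances are a description over 6 libraries that share 2 groups.

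**Figure D4:**
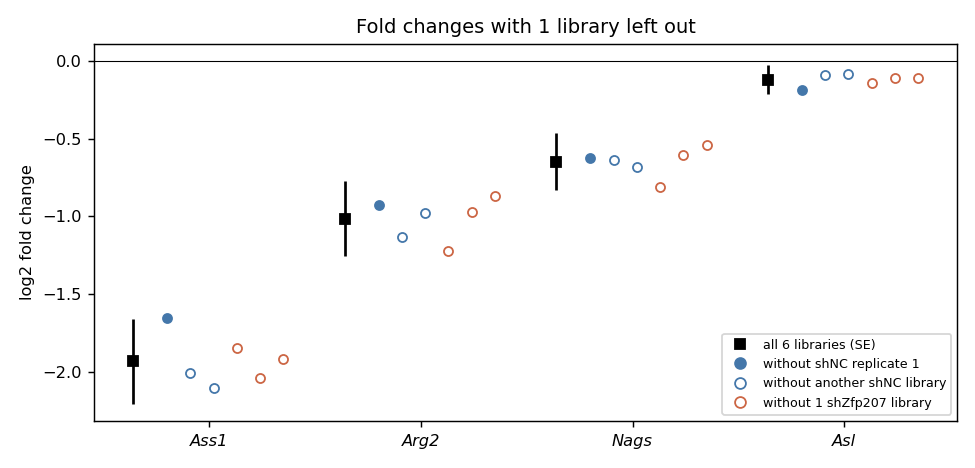
Log2 fold change of the 4 urea cycle genes with all 6 libraries (black squares, with SE) and with each library left out in turn (circles; the filled one leaves out control replicate 1). Ass1 runs from -2.11 to -1.66, Arg2 from -1.22 to -0.87, Nags from -0.81 to -0.54 and Asl from -0.19 to -0.08.

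The labelled cell type was checked against its markers. Of 10 hepatocyte genes 8 could be tested, 4 were higher and 2 lower, against 9.92% and 10.7% of all genes tested. Among the abundant ones, Alb and Afp had more counts in every knockdown library than in any control, and Apoe and Trf had fewer. Alb had 6252, 17598 and 18741 counts across control replicates 1 to 3, and 34231 to 35865 in knockdown libraries. Apoe had 19910, 27212 and 31375, and 16232 to 18702. The summed level of the 10 was 4264 to 5460 CPM in control and 6652 to 6826 CPM in knockdown libraries. Calls among the cell type markers were not counted without control replicate 1. Ttr and Serpina1a, which liver makes in quantity, had at most 5 and 3 counts in any library. Of 6 T and NK cell markers 5 had a count of 0 in all libraries. The myeloid sum, relevant because some macrophages make Arg1, was 37.4 to 42.1 CPM in control and 43.0 to 44.8 CPM in knockdown libraries, mostly Cd68 and Cd14, with Tyrobp and Clec4f at 0 throughout and 1 of 4 testable genes, Csf1r, higher. Endothelial markers summed to at most 2.12 CPM. Of the stellate and fibroblast list the sum of 2022 to 2283 and 2684 to 2767 CPM was nearly all Dcn, with Lrat at 0. Of 6 cholangiocyte genes 5 could be tested, 3 were lower and 0 higher, and the sum was 926.3 to 1074 CPM in control and 465.4 to 473.8 CPM in knockdown libraries. The part of these genes' changes in the levels of the urea cycle genes was not tested.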

How the data were processed

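Total RNA of 6 Hepa1-6 libraries was sequenced, 3 control (shNC) and 3 knockdown (shZfp207), grouped by their titles. The authors deposited raw read counts per gene and FPKM in separate tables; reads were handled with HISAT2 2.0.5 and featureCounts 1.5.0-p3 on mm10, per the submitters' processing notes. Not given in the sources used here: annotation release, strand setting and the length behind the FPKM. Counts were tested as deposited with edgeR 4.0.16 in R 4.3.3 (filterByExpr, TMM scaling, quasi-likelihood test, Benjamini-Hochberg adjustment over 11975 genes, threshold 0.05), a procedure tested on simulated data. SE is that of the log2 fold change. Exonic lengths and overlaps came from GENCODE M21, promoter sequence from RefSeq (GRCm38.p6). Levels per length used counts per kilobase of exonic sequence, chosen as an alternative after seeing the data.

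The 7 members and the gene lists were chosen with earlier results of these data known. The text names all members, the listed genes past the threshold (up to 6 a list, or the 2 most abundant where none passed), the nearest neighbours of the lower members and the nearest patterns, and genes named otherwise are marked, beside Zfp207 and the cell type markers. Alternatives were DESeq2 1.42.0, limma 3.58.1 on log2(FPKM + 0.1), RLE or upper-quartile scaling, no filter, a filter of 1 CPM in 3 libraries, a replicate block and each library left out. Same-numbered libraries' deviations correlated at -0.00855, 0.0076 and 0.0524, and those of other pairs at -0.0475 to 0.0245. With 3 libraries a group these values cannot decide whether the numbers pair libraries, which the labels do not say.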

Additional observations from a re-analysis of the deposited data

How the results depend on the processing

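The number of genes called was 2466 and fell to 987 with the replicate number as a block, under which the numbers of listed genes called were 1 for carriers (2 without it), 0 for supply (2), 1 for arginine, ornithine and proline (5), 0 for fumarate (1), 1 for transcription factors (3), 3 for pericentral genes (5) and 2 for neighbours (6). Over all genes the count was 2009 without the low-count filter, 2429 with 1 CPM in 3 libraries, 2460 and 2584 with RLE and upper-quartile scaling, 2461 by limma and 3238 by DESeq2. Supply fell to 0 without that filter, carriers to 1 by limma on FPKM, and neighbours rose to 10 by DESeq2. With each library left out in turn, the counts ran from 534 to 6313 for all genes, 0 to 7 for carriers, 0 to 4 for supply, 1 to 10 for arginine, ornithine and proline, 0 to 3 for pyrimidines, 0 to 5 for fumarate, 0 to 7 for transcription factors, 1 to 5 for pericentral genes and 2 to 15 for neighbours. The highest counts of all genes came without control replicate 1. Zfp207 ran from -2.11 to -1.82. The share of Arg2 in the control level was 20.9% by FPKM and 16.2% per kilobase of exonic sequence, and that of Nags 7.91% and 9.50%, an alternative added after seeing the data. The log2 fold change of Tmem101, -0.0053, was 0.0034 with RLE scaling, 0.0022 without the filter, 0.0011 with the block and 0.0048 by DESeq2. With a library left out the sign also changed for Ctps (-0.10 to 0.0041), Gpr107 (-0.15 to 0.0708), Fubp3 (-0.16 to 0.12), Plekhh1 (-0.0603 to 0.34), Mpp3 (-0.18 to 0.58) and Tmem101 (-0.0911 to 0.15). Without control replicate 1 it changed for Slc25a15 (-0.20 to 0.08), Slc1a2 (-0.12 to 0.17) and Hnf4a (0.02 to -0.04). The cause of these shifts was not tested. Otc and Arg1 cannot show a change at this depth, and the ratio given for Cps1 rests on few counts and was not tested.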
